A study of Mus musculus with 12 samples.

Results

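The 10 genes described here encode chondroitin sulfate proteoglycans and proteins that bind or build them: Cspg4, Cspg5, Ptprz1, Bcan, Ncan, Vcan, Hapln1, Tnr, Matn4 and Xylt1. They were taken by name from the 55401 gene identifiers of the count table, in which all 10 were found, with no cutoff on a measured value. RNA was sequenced from 12 cultures of cells from the subventricular zone, the germinal layer beside the lateral ventricles, of CD1 mice, with 4 libraries in each of 3 groups. Postnatal OPC libraries came from oligodendrocyte precursor cells, made by dissociating primary neurospheres of pups aged postnatal day 0 to 2 and keeping them as a monolayer for 2 days with FGF and PDGF-AA at 10 ng/mL each. Adult NSC libraries came from neural stem cells of animals aged 2 months, and postnatal NSC libraries from neural stem cells of pups aged postnatal day 0 to 2, both grown as floating neurospheres over 6 to 7 days in FGF (10 ng/mL), EGF (20 ng/mL) and heparin (2 ug/mL). All media were serum-free with 2% B27, the labels give no treatment and no genotype beyond the strain, and cell type and medium changed together between postnatal OPC and either NSC group. Per the labels the cultures came from 4 independent litters, so that p-values measure the spread between such cultures.

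A chondroitin sulfate proteoglycan is a core protein that carries long sulfated sugar chains, each started by a xylose on a serine of the core. The lecticans, brevican (Bcan), neurocan (Ncan), versican (Vcan) and aggrecan (Acan), are secreted cores that bind hyaluronan, with link proteins such as Hapln1 holding the bond and tenascin-R (Tnr) joining lecticans to each other, and this matrix surrounds many neurons and precursor cells of the brain. Other cores sit in the membrane: NG2, encoded by Cspg4, is the classical surface marker of OPC and is also made by pericytes, and Ptprz1 is a receptor phosphatase whose secreted form is phosphacan.

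Promoter sequences were matched for 8 of the 10 genes in RefSeq's mouse table (GRCm38.p6), as windows of 300 bases that run from 250 bases before to 50 bases after an annotated start. Each window was searched on both strands for the E-box CANNTG, the core bound by many basic helix-loop-helix factors, and for ACAAAG or ACAATG, a core bound by many SOX factors. Matches are in capitals. Matn4 is shown because its transcript differed most between groups, Ncan because it went against most of the set, Tnr because it held the only SOX core among the 8 genes matched, and Cspg4 because it encodes the marker NG2 and held neither motif.
Matn4 (chr2:164405111-164405410, minus strand): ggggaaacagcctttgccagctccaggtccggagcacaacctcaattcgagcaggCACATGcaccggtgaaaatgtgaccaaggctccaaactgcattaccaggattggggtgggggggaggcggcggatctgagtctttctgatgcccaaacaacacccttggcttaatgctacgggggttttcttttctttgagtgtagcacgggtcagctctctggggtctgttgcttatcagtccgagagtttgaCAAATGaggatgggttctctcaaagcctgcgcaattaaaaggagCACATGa
Ncan (chr8:70120795-70121094, minus strand): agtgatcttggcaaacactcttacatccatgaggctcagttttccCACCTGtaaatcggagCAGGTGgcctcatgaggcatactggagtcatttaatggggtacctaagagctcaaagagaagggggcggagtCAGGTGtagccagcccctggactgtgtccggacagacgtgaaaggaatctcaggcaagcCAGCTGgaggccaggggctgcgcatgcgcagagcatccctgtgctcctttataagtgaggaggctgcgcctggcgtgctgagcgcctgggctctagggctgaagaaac
Tnr (chr1:159523519-159523818, plus strand): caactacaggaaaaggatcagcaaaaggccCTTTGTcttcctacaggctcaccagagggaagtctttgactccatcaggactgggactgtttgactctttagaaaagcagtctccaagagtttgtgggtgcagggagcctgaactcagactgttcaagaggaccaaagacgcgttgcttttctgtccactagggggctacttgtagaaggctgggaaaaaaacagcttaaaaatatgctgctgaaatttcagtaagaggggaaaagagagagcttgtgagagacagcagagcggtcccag
Cspg4 (chr9:56864854-56865153, plus strand): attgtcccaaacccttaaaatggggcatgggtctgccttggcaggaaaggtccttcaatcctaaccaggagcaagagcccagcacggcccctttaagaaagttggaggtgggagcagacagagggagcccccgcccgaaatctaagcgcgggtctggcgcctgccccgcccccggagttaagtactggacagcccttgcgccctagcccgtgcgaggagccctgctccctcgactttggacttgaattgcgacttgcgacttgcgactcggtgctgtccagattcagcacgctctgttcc
The Ncan window held 4 E-boxes, a number reached or passed by 6.49% of 32817 mouse windows of this length. The Matn4 window printed held 3, a number reached or passed by 17.6% of windows, and a second Matn4 window, from an alternative start, held 1. Vcan also had 1 E-box, and none was found in the windows of Bcan, Ptprz1, Hapln1, Tnr or Cspg4. The Tnr window held 1 SOX core. Since 72.3% of all windows held an E-box and 28.6% a SOX core, such matches describe letters only, and no start site was measured here. No motif overlapped another.

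Expression levels are in CPM, that is counts per 1e6 of the TMM-scaled library size, and differences are log2 fold changes with their standard error (SE) from edgeR's quasi-likelihood test, adjusted by Benjamini-Hochberg over the 16135 genes that passed a filter on low counts. A gene was called changed at an adjusted p under 0.05. Of the 10 genes, 9 passed the filter, and Hapln1 did not. The 10 genes together held 0.908% to 1.0% of all counts in postnatal OPC libraries, 0.512% to 0.528% in adult NSC libraries and 0.598% to 0.814% in postnatal NSC libraries, and Ptprz1 had the highest count among them in every library. In tissue or culture RNA such as this, fewer cells of a type and less RNA per cell cannot be told apart.

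Against postnatal NSC, postnatal OPC had 6 of the 9 tested genes called higher (Cspg4, Cspg5, Ptprz1, Vcan, Matn4 and Xylt1) and 1 called lower (Ncan), while Bcan and Tnr did not pass. Among all genes tested 45.1% were called in this comparison, 22.4% higher and 22.7% lower in OPC, and the genes' median log2 fold change was 0.78, beside -0.01 for all genes. Against postnatal NSC, adult NSC had 1 gene called higher (Xylt1) and 7 called lower, with Ptprz1 not called. In that comparison 53.1% of all genes were called, 25.2% higher and 27.9% lower in adult NSC, and the median was -0.76 for the genes and -0.03 for all genes tested. Postnatal OPC against adult NSC gave 7 genes called higher and 0 called lower by edgeR, with Ncan and Xylt1 not called, where 51.0% of all genes were called, 26.3% higher and 24.7% lower in OPC. At an unadjusted p under 0.05 edgeR gave 1 gene lower, Ncan, and DESeq2 called the same 1. The median there was 1.82 for the genes and 0.01 for all genes tested. The 3 comparisons share libraries, so that they are not independent of each other.

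**Figure D1:**
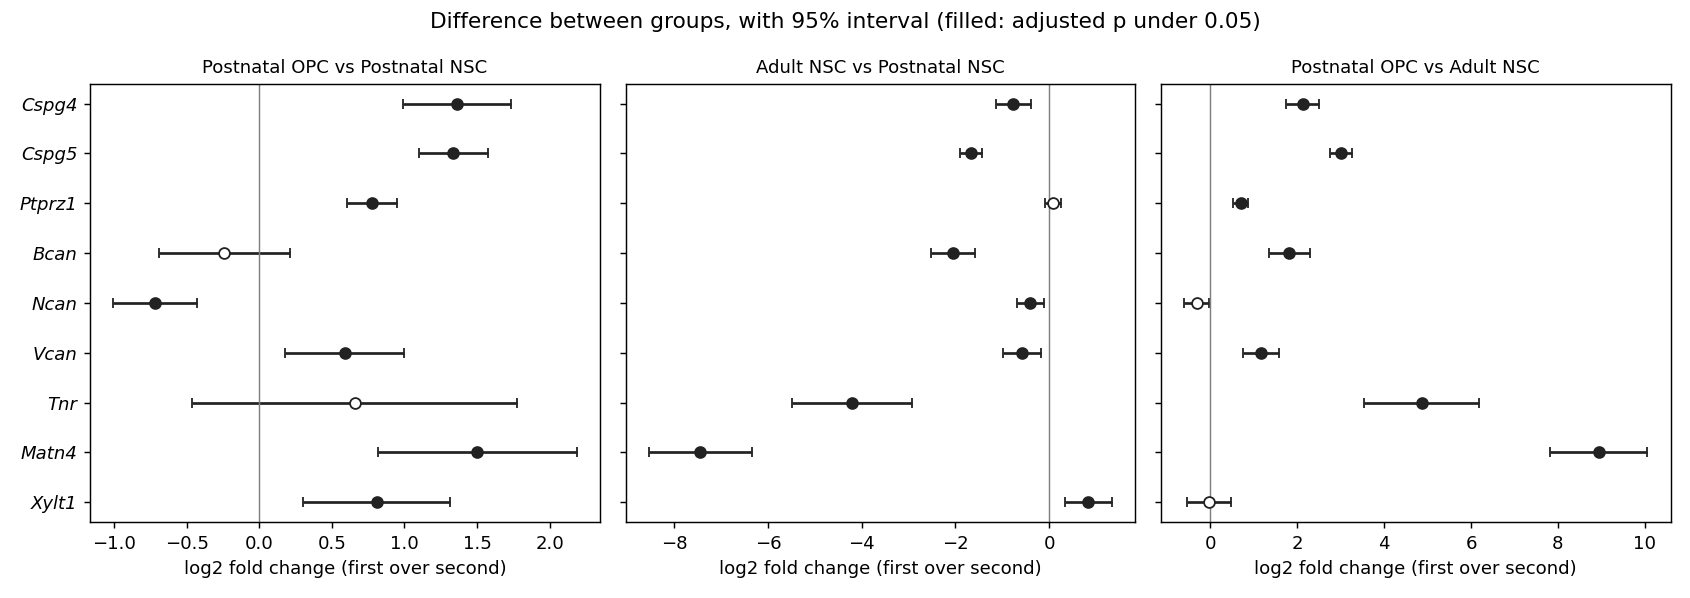
Log2 fold change of the 9 tested genes in each comparison, first group over second, with 95% intervals. Filled points have an adjusted p under 0.05; the scale of the horizontal axis differs between panels. Matn4 and Tnr had the widest differences between adult NSC and the other groups, and Xylt1 was the 1 gene called higher in adult than in postnatal NSC.

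The membrane-bound cores were highest in postnatal OPC. Cspg4 (chr9:56865033-56899870, plus strand, GRCm38) encodes NG2. It had 314, 402, 340.3 and 302 CPM in postnatal OPC, 75.6, 69.5, 88.0 and 78.7 CPM in adult NSC and 166, 149, 87.6 and 126 CPM in postnatal NSC. All 4 OPC libraries lay above every NSC library, and the NSC groups overlapped only in adult NSC 3, which lay just above postnatal NSC 3. Cspg4 was 2.57-fold higher in postnatal OPC than in postnatal NSC (log2 1.36 ± 0.17 SE, edgeR adjusted p = 6.98e-05). It was 1.7-fold lower in adult than in postnatal NSC (log2 -0.76 ± 0.17 SE, edgeR adjusted p = 0.00274). Between postnatal OPC and adult NSC the difference was 4.36-fold (log2 2.12 ± 0.175 SE, edgeR adjusted p = 1.57e-06). Pericytes also make NG2, and the summed level of 8 pericyte and fibroblast markers was 3.75 to 9.62 CPM in postnatal OPC, 17.3 to 44.2 CPM in adult NSC and 45.1 to 70.7 CPM in postnatal NSC. Lum was at 0 in all OPC and adult NSC libraries and Kcnj8 in all postnatal NSC libraries, and the highest marker of the list in both NSC groups was Acta2, at 2.31 ± 1.4 CPM in postnatal OPC, 24.2 ± 9.98 CPM in adult NSC and 46.7 ± 11.5 CPM in postnatal NSC (SD, n = 4 each). The pericyte marker Pdgfrb, highest of the list in OPC, ran otherwise, at 2.82 ± 4.08 CPM in postnatal OPC, 0.288 ± 0.186 CPM in adult NSC and 1.82 ± 1.56 CPM in postnatal NSC. It was 9.96-fold higher in postnatal OPC than in adult NSC (edgeR adjusted p = 0.025) and not called against postnatal NSC (edgeR adjusted p = 0.575). The OPC libraries of Pdgfrb ran from 0.432 to 8.93 CPM, so that the highest library carried most of the OPC mean. The part of these cells in the level of Cspg4 was not tested.

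Cspg5 (chr9:110243783-110262576, plus strand) encodes neuroglycan C, a membrane proteoglycan of neural tissue. Its levels were 664, 599.6, 543 and 584 CPM in postnatal OPC, 70.0, 67.8, 89.5 and 72.2 CPM in adult NSC and 262, 251, 209.9 and 224 CPM in postnatal NSC. No 2 groups overlapped, with postnatal OPC above postnatal NSC and postnatal NSC above adult NSC. It was 2.53-fold higher in postnatal OPC than in postnatal NSC (log2 1.34 ± 0.11 SE, edgeR adjusted p = 4.37e-06). In adult NSC it was 3.16-fold lower than in postnatal NSC (log2 -1.66 ± 0.11 SE, edgeR adjusted p = 7.24e-07). The gap between postnatal OPC and adult NSC was 7.98-fold (log2 3.00 ± 0.12 SE, edgeR adjusted p = 4.17e-09), the smallest adjusted p of the set in any comparison.

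Ptprz1 (chr6:22875502-23052916, plus strand), the receptor phosphatase, was the most abundant of the genes by counts. It had 4851, 4300.2, 4767 and 5091 CPM in postnatal OPC, 2909.8, 3009, 2896 and 2868 CPM in adult NSC and 2947, 2527, 2889.6 and 2736 CPM in postnatal NSC. Every OPC library was above every NSC library, while the NSC groups overlapped. Ptprz1 was 1.71-fold higher in postnatal OPC than in postnatal NSC (log2 0.78 ± 0.08 SE, edgeR adjusted p = 1.84e-05) and 1.63-fold higher than in adult NSC (log2 0.70 ± 0.08 SE, edgeR adjusted p = 1.95e-05). Adult and postnatal NSC did not differ beyond their spread in Ptprz1 (log2 0.07, 95% interval -0.10 to 0.25, edgeR adjusted p = 0.448), and the sign of that small difference turned without TMM scaling and without postnatal NSC 2. For each CPM of Cspg4 per kb of exon there were 8.96 to 14.1 CPM of Ptprz1 per kb in postnatal OPC, 27.5 to 36.3 in adult NSC and, in postnatal NSC, 14.2 to 27.6.

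**Figure D2:**
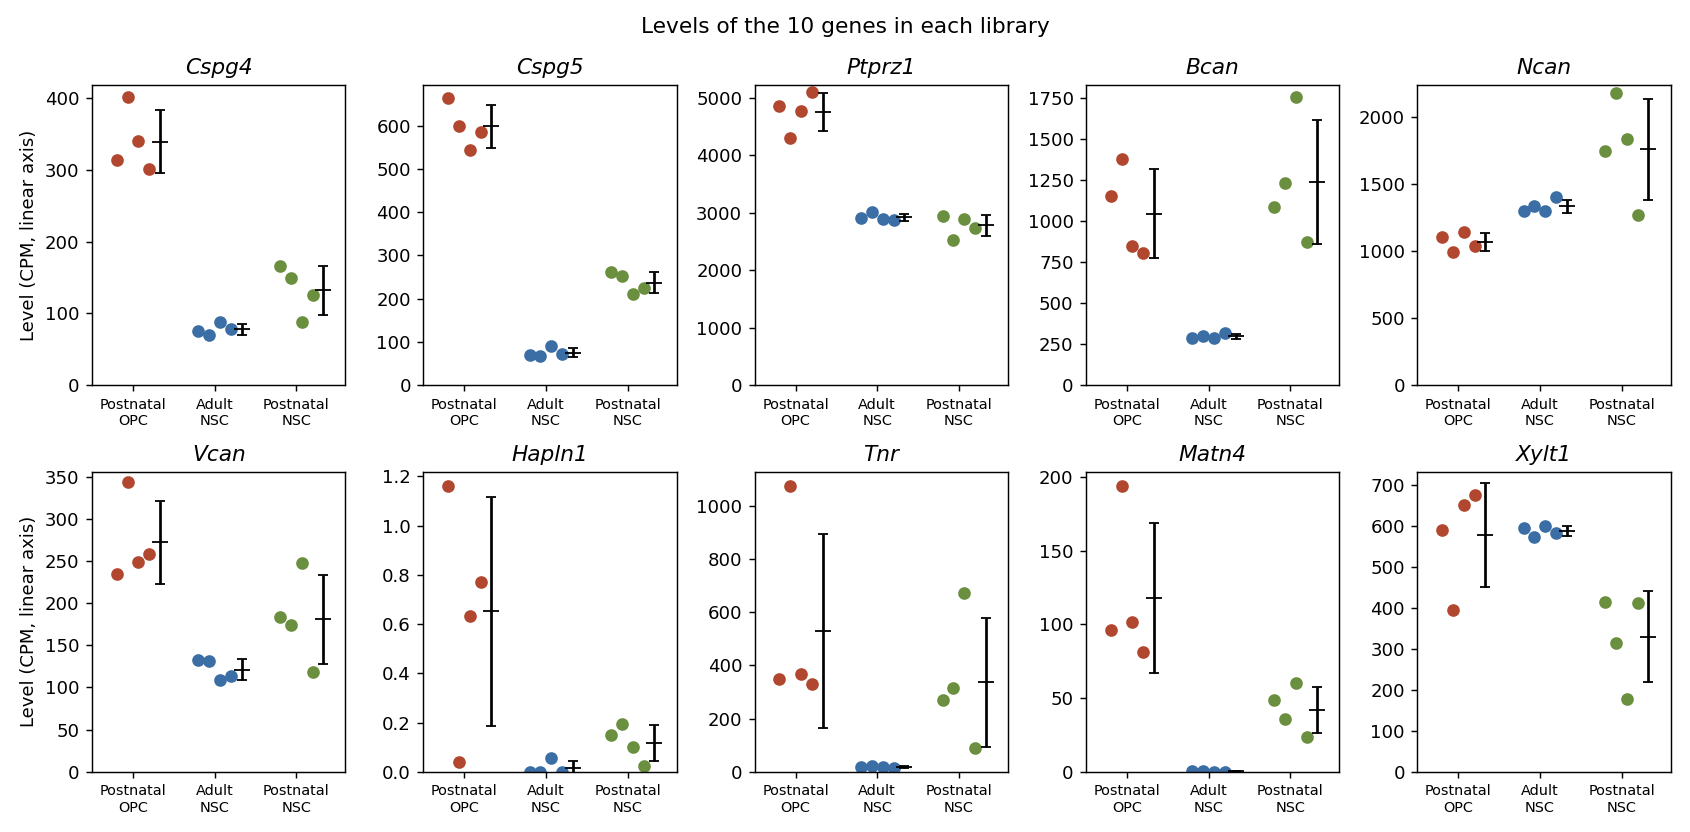
Level of each of the 10 genes in each library, in CPM on linear axes that start at 0 and differ between panels; points are libraries 1 to 4 from left to right in each group, with the mean and SD (n = 4). Cspg5 separated all 3 groups, Bcan was lowest in adult NSC, Ncan was lowest in postnatal OPC, and adult NSC libraries of Tnr and Matn4 lay near 0 on these axes.

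The 3 lecticans of the set had different orders of the group means. Bcan (chr3:87987531-88000230, minus strand) encodes brevican, a lectican of the adult nervous system. Levels of Bcan were 1153, 1376, 849 and 802 CPM in postnatal OPC, 287, 296, 287 and 315 CPM in adult NSC and 1083, 1232, 1755 and 869 CPM in postnatal NSC. Adult NSC libraries were below all 8 others, and the postnatal groups overlapped. Adult NSC was 4.17-fold lower than postnatal NSC (log2 -2.06 ± 0.22 SE, edgeR adjusted p = 2.48e-05), and postnatal OPC was 3.53-fold higher than adult NSC (log2 1.82 ± 0.21 SE, edgeR adjusted p = 2.64e-05). Postnatal OPC and postnatal NSC did not differ beyond their spread in Bcan (log2 -0.24, 95% interval -0.69 to 0.21, edgeR adjusted p = 0.365).

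Ncan (chr8:70093085-70120873, minus strand) encodes neurocan, a lectican of the developing brain, and its window with 4 E-boxes is printed above. It had 1106, 988, 1139.6 and 1037 CPM in postnatal OPC, 1299, 1332, 1297 and 1400.1 CPM in adult NSC and 1741, 2177, 1835 and 1268 CPM in postnatal NSC. The OPC libraries were below all 8 NSC libraries, and postnatal NSC 4 lay below the adult ones while the other 3 postnatal NSC libraries lay above them. Ncan was 1.64-fold lower in postnatal OPC than in postnatal NSC (log2 -0.72 ± 0.13 SE, edgeR adjusted p = 0.000948), the only call of the set in that direction. It was 1.32-fold lower in adult than in postnatal NSC (log2 -0.40 ± 0.13 SE, edgeR adjusted p = 0.023), and it was not called without adult NSC 1, 2 or 3, without postnatal NSC 2 or with the Y-linked genes as a covariate. Between postnatal OPC and adult NSC it missed the threshold although no libraries overlapped (log2 -0.32 ± 0.13 SE, 95% interval -0.61 to -0.03, edgeR adjusted p = 0.0596), and it was called lower in OPC with only these groups fitted, without postnatal NSC 2 or 4, and with DESeq2 (adjusted p from 0.00479 to 0.0471).

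Vcan (chr13:89655312-89742509, minus strand) encodes versican, which has the longest exon length of the lecticans. Its levels were 235, 344, 249 and 258 CPM in postnatal OPC, 133, 131, 109 and 113 CPM in adult NSC and 183, 174, 247 and 118 CPM in postnatal NSC. OPC and adult NSC were apart, with postnatal NSC spread over the space between them and into both. Vcan was 1.5-fold higher in postnatal OPC than in postnatal NSC (log2 0.59 ± 0.19 SE, edgeR adjusted p = 0.0232), and without postnatal OPC 2 it was not called (log2 0.42, edgeR adjusted p = 0.0825), nor without postnatal NSC 1, 2 or 4 (log2 0.39 to 0.57). In adult NSC it was 1.49-fold lower than in postnatal NSC (log2 -0.58 ± 0.19 SE, edgeR adjusted p = 0.0228), and without postnatal NSC 3 it was not called (log2 -0.39, edgeR adjusted p = 0.0686), nor without adult NSC 3 or 4 (log2 -0.52 and -0.53). Postnatal OPC was 2.24-fold higher than adult NSC (log2 1.16 ± 0.19 SE, edgeR adjusted p = 0.000332). Acan, the lectican best known from cartilage and from nets around neurons, is outside the set and stayed low, at 1.71 ± 0.68 CPM in postnatal OPC, 0.433 ± 0.077 CPM in adult NSC and 0.884 ± 0.113 CPM in postnatal NSC (SD, n = 4 each).

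Levels of different genes can be compared only per length, here as CPM per kb of annotated exon. On that scale Ncan was the main lectican transcript of adult NSC. It made up 27.5% to 41.2% of the summed lectican level in postnatal OPC libraries, 69.3% to 69.7% in adult NSC libraries and 36.2% to 49.0% in postnatal NSC libraries. Bcan made up 54.3% to 67.7% of the sum in postnatal OPC, 27.1% to 27.7% in adult NSC and, in postnatal NSC, 49.1% to 61.3%. Vcan held 3.57% to 4.97% in postnatal OPC, 2.78% to 3.53% in adult NSC and, in postnatal NSC, 1.95% to 2.43%, with no overlap between postnatal OPC and any NSC library. The level of Bcan was 1.32 to 2.47 times that of Ncan in postnatal OPC, 0.391 to 0.399 times in adult NSC and, in postnatal NSC, 1.0 to 1.69 times. The sum of all 4 lecticans was 359.5 to 499.9 CPM per kb in postnatal OPC, 258 to 280 in adult NSC and, in postnatal NSC, 399 to 704, so that adult NSC had both the lowest sum and the narrowest range.

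**Figure D3:**
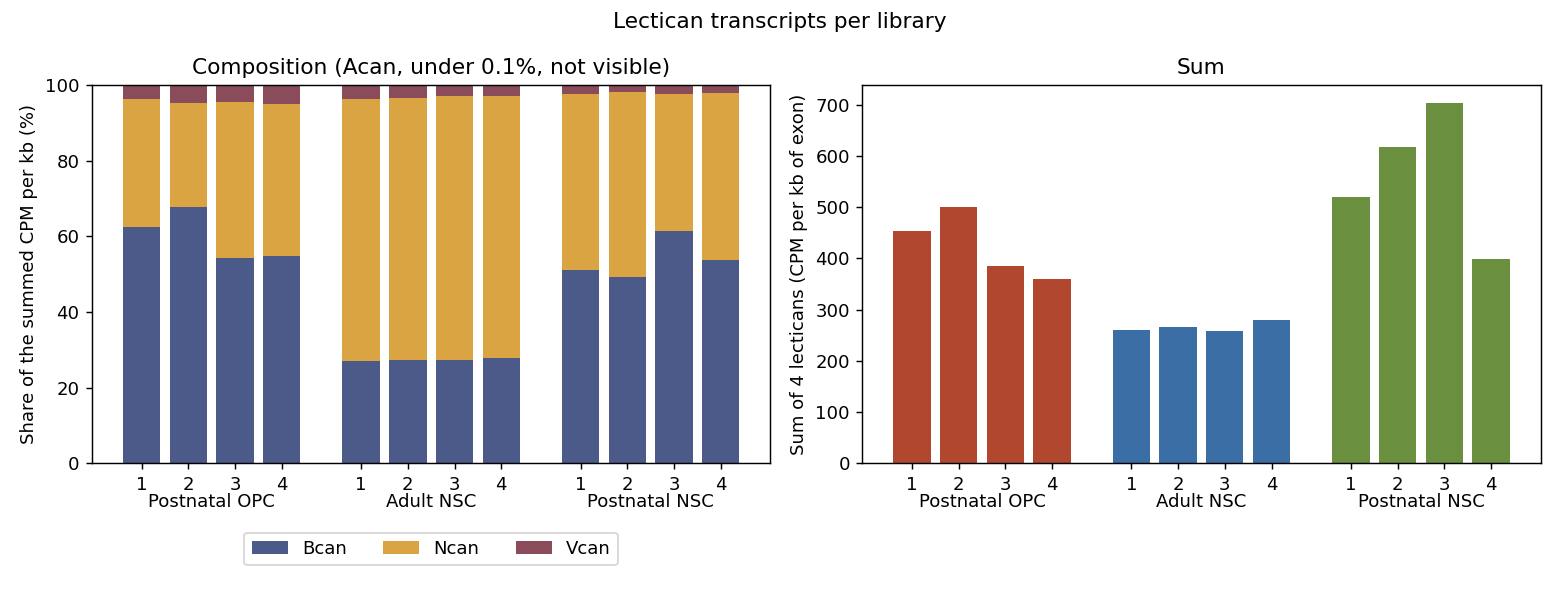
Left, share of each lectican in the summed level of Bcan, Ncan, Vcan and Acan (CPM per kb of exon) in each library, in percent; right, that sum. Ncan held 69.3% to 69.7% in adult NSC libraries, and the sum was lower in the 4 adult NSC libraries than in the 8 others.

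By level per kb, 3 genes of the set stood high in every group. In postnatal OPC the mean level was 334 CPM per kb for Ptprz1, 257 for Bcan and 148 for Ncan. In adult NSC it was 205 for Ptprz1, 185 for Ncan and 72.9 for Bcan, and in postnatal NSC it was 304 for Bcan, 244 for Ncan and 195 for Ptprz1. In each group these 3 were above at least 95.5% of the tested genes. The other tested genes ranged from 18.8 (Vcan) to 59.9 (Xylt1) CPM per kb in postnatal OPC. In adult NSC they spread much more widely, from 0.0447 (Matn4) to 61.0 (Xylt1) CPM per kb, and in postnatal NSC from 8.1 (Matn4) to 34.2 (Xylt1). Xylt1 thus had the highest mean among these 6 genes in every group, with Cspg5 beside it at 59.3 in postnatal OPC.

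The partner proteins showed the widest differences. Matn4 (chr2:164389393-164405160, minus strand) encodes matrilin-4, an adaptor protein of the extracellular matrix that binds other matrix molecules. It had 96.2, 194, 102 and 81.6 CPM in postnatal OPC, 0.382, 0.312, 0.169 and 0.0617 CPM in adult NSC and 48.4, 35.6, 60.2 and 23.3 CPM in postnatal NSC. No 2 groups overlapped, and the adult values rest on 7, 6, 3 and 1 counts. Matn4 was 2.83-fold higher in postnatal OPC than in postnatal NSC (log2 1.501 ± 0.315 SE, edgeR adjusted p = 0.0022). It was 174-fold lower in adult than in postnatal NSC (log2 -7.44 ± 0.51 SE, edgeR adjusted p = 9.41e-07) and 491-fold higher in postnatal OPC than in adult NSC (log2 8.94 ± 0.515 SE, edgeR adjusted p = 1.15e-07).

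The gene Rbpjl, which encodes a relative of the Notch transcription factor RBPJ, starts on the other strand within the 5′ part of Matn4, 2019 bases downstream of the Matn4 start (chr2:164403141-164415448), and shares 149 exon bases with it. It had 213, 419, 147 and 169 counts in postnatal OPC, 0 in each adult NSC library and 159, 188, 264 and 111 counts in postnatal NSC. These are 8.27% to 10.7% of the Matn4 counts in postnatal OPC and 8.16% to 11.8% in postnatal NSC, a nearly fixed share. The libraries were made with a stranded kit, but whether strand was used in counting is not given in the sources used here, so that reads of Matn4 and Rbpjl over the shared bases cannot be told apart.

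Tnr (chr1:159523769-159931729, plus strand), tenascin-R, is the glycoprotein that crosslinks lecticans and is known from oligodendrocytes and some neurons. It had 349, 1076, 368 and 330.0 CPM in postnatal OPC, 18.3, 22.6, 18.4 and 13.4 CPM in adult NSC and 271, 315, 671 and 88.9 CPM in postnatal NSC. Adult NSC was below every postnatal library, and OPC and postnatal NSC overlapped, each with 1 library well above its other 3. Tnr was 18.5-fold lower in adult than in postnatal NSC (log2 -4.21 ± 0.59 SE, edgeR adjusted p = 0.000162) and 29.2-fold higher in postnatal OPC than in adult NSC (log2 4.87 ± 0.61 SE, edgeR adjusted p = 4.21e-05). Between postnatal OPC and postnatal NSC it did not pass (log2 0.66, 95% interval -0.46 to 1.775, edgeR adjusted p = 0.317), and over the other settings its log2 fold change ran from 0.02 to 1.23. An antisense gene, Gm38039, shares 443 exon bases with Tnr. Per CPM per kb of all lecticans there were 0.0597 to 0.167 of Tnr in postnatal OPC, 0.00372 to 0.00658 in adult NSC and, in postnatal NSC, 0.0173 to 0.0741.

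Hapln1 (chr13:89539796-89611652, plus strand), the link protein that fixes lecticans to hyaluronan, was barely detected. It had 24, 1, 11 and 16 counts in postnatal OPC, 0, 0, 1 and 0 counts in adult NSC and 6, 11, 4 and 1 counts in postnatal NSC, and the OPC library with 1 count is postnatal OPC 2. The groups overlapped in CPM in all 3 comparisons. A count of 0 allows up to 3 counts, or 0.156 to 0.185 CPM in an adult NSC library, so that a level like that of postnatal NSC (0.0249 to 0.193 CPM) was at the limit of what 1 adult library could show. From summed counts, the level in postnatal OPC was 5.03 times that in postnatal NSC (52 and 22 counts, exact 95% interval 3.0 to 8.7). Adult NSC had 0.113 times the level of postnatal NSC (1 and 22 counts, interval 0.00273 to 0.697), and postnatal OPC had 44.6 times the level of adult NSC (52 and 1 counts, interval 7.67 to 1796). These intervals and limits cover counting error only. Without the filter on low counts, edgeR's quasi-likelihood test gave Hapln1 an adjusted p of 0.0246 for postnatal OPC against postnatal NSC, 0.122 for adult against postnatal NSC and 0.00218 for postnatal OPC against adult NSC. Fits with libraries left out kept the filter. Hapln1 passed it in some of them through its counts in postnatal OPC, and was not tested without postnatal OPC 1, 3 or 4. Adult against postnatal NSC passed there without postnatal OPC 2 (edgeR adjusted p = 0.0331) and without both postnatal OPC 2 and postnatal NSC 3 (edgeR adjusted p = 0.0401). It did not pass when any 1 adult or postnatal NSC library was left out (edgeR adjusted p from 0.0711 to 0.217). Since Hapln1 entered these fits through the group where it was highest, they add no support for a difference between the NSC groups. Per CPM per kb of all lecticans there were at most 0.000434 of Hapln1 in any library.

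Xylt1 (chr7:117380979-117673580, plus strand) encodes a xylosyltransferase that puts the first sugar of the chain on the core protein. It had 591, 394, 652 and 676 CPM in postnatal OPC, 595, 574, 601 and 583 CPM in adult NSC and 414, 315, 178 and 412 CPM in postnatal NSC. Postnatal NSC was below every adult NSC library and below every OPC library but postnatal OPC 2. Xylt1 was 1.75-fold higher in postnatal OPC than in postnatal NSC (log2 0.81 ± 0.23 SE, edgeR adjusted p = 0.0132), and with the Y-linked genes as a covariate it was not called (edgeR adjusted p = 0.055). Adult NSC was 1.78-fold higher than postnatal NSC (log2 0.84 ± 0.23 SE, edgeR adjusted p = 0.00985). Postnatal OPC and adult NSC did not differ beyond their spread (log2 -0.03, 95% interval -0.53 to 0.48, edgeR adjusted p = 0.939), and the sign turned under 3 other settings, by up to 0.13. The Y-linked genes used as a covariate were uneven between groups. Their mean log2 CPM was -3.791 in adult NSC 1, -3.128 in postnatal NSC 2 and -3.577 in postnatal NSC 3. In all other libraries, among them every postnatal OPC library, it was 4.207 to 5.984.

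Ordered by level, Cspg4, Cspg5, Vcan, Hapln1, Tnr and Matn4 had the order postnatal OPC, postnatal NSC, adult NSC in their means, with Hapln1 not tested and the first pair not called for Tnr. For Ptprz1, postnatal OPC came first and the NSC groups did not differ beyond their spread. For Bcan the postnatal groups did not differ beyond their spread and adult NSC came last. Ncan ran from postnatal NSC over adult NSC to postnatal OPC, the last pair not called. Xylt1 was alone in having postnatal NSC last with the other groups together. Of the 10 genes, 4 had all postnatal OPC libraries above all postnatal NSC libraries and 1 had them below, where 34.9% of all genes tested were without overlap (18.0% above and 16.9% below). Adult NSC was above postnatal NSC for 1 gene and below for 4, beside 53.2% of all genes without overlap (27.2% above and 26.0% below), and postnatal OPC was above adult NSC for 7 and below for 1, beside 56.6% (27.9% above and 28.7% below).

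Within groups, 2 libraries stood apart. The mean log2 CPM of 16 genes of DNA replication and the G1/S step of the cell cycle was 4.78 in postnatal OPC 2 and 6.82 to 7.01 in the other OPC libraries. It was 5.14 in postnatal NSC 3 and 6.25 to 6.74 in the other postnatal NSC libraries, and 6.84 to 7.01 in adult NSC. In both of these libraries Tnr, Matn4, Bcan and Vcan were the highest of their group and Xylt1 was the lowest. Tnr was 1.59 (log2) above the median of its group in postnatal OPC 2 and 1.20 above in postnatal NSC 3. Xylt1 had a log2 difference from that median of -0.66 in postnatal OPC 2 and of -1.01 in postnatal NSC 3. Cspg4 went opposite ways, being the highest of its group in postnatal OPC 2 (log2 difference 0.30) and the lowest in postnatal NSC 3 (log2 difference -0.64). Ptprz1 and Cspg5 moved little, with log2 differences between -0.18 and 0.04 in these libraries. Summed markers of mature oligodendrocytes and of neurons were also the highest of their group in both libraries. The oligodendrocyte sum was 531 CPM in postnatal OPC 2 and 258 to 319 CPM in the other OPC libraries, and it was 901 CPM in postnatal NSC 3 and 328 to 592 CPM in the other postnatal NSC libraries. The neuron sum was 233 CPM in postnatal OPC 2 and 82.2 to 128 CPM in the other OPC libraries, and it was 94.1 CPM in postnatal NSC 3 and 32.0 to 71.4 CPM in the other postnatal NSC libraries. Postnatal NSC 3 was also among the libraries low in Y-linked genes (mean log2 CPM -3.577), while postnatal OPC 2 was not (5.984). The part of these differences in the levels was not tested.

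With both of these libraries left out, the log2 fold change of postnatal OPC over postnatal NSC was 1.11 for Cspg4, 0.64 for Vcan, 1.38 for Matn4 and 0.745 for Xylt1, each called by edgeR at an adjusted p from 1.29e-05 to 0.00278. That of Tnr was 0.63 and was again not called (edgeR adjusted p = 0.138). Leaving out postnatal OPC 2 alone gave 0.02 for Tnr (edgeR adjusted p = 0.975) and 1.13 for Matn4 (edgeR adjusted p = 0.00477). Adult NSC against postnatal NSC without these libraries stood at -3.64 for Tnr and at -1.85 for Bcan, both called (edgeR adjusted p = 1.18e-05 and 1.89e-06).

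**Figure D4:**
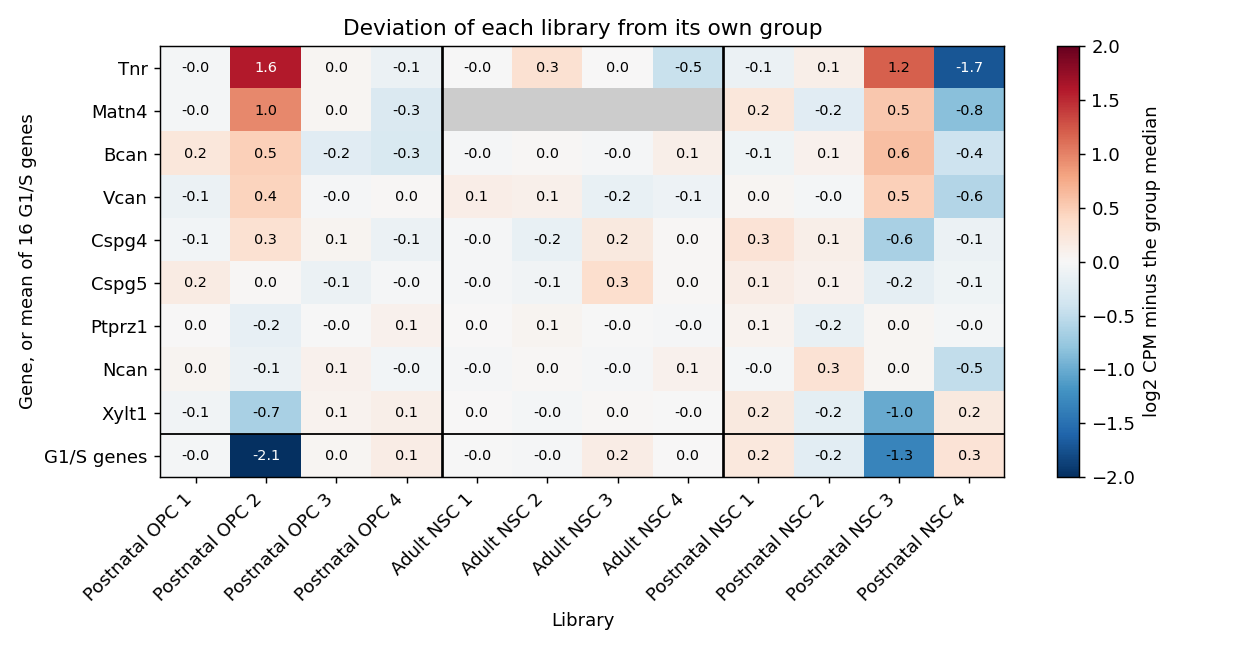
Log2 CPM of each gene in each library minus the median of its own group, with the mean of 16 G1/S genes in the bottom line; Matn4 is left grey in adult NSC, where it had 1 to 7 counts. Postnatal OPC 2 and postnatal NSC 3 were low in G1/S genes and in Xylt1 and high in Tnr, Matn4, Bcan and Vcan.

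For Xylt1, Ptprz1, Ncan and Bcan the adult NSC libraries were the most alike. Their coefficient of variation over the 4 adult NSC libraries was 2.1% for Xylt1, 2.11% for Ptprz1, 3.62% for Ncan and 4.52% for Bcan. In postnatal NSC these were 33.7% for Xylt1, 6.76% for Ptprz1, 21.4% for Ncan and 30.5% for Bcan. In postnatal OPC the spread was 22.1% for Xylt1, 6.97% for Ptprz1, 6.38% for Ncan and 25.8% for Bcan. Tnr had 68.6% in postnatal OPC, 20.7% in adult NSC and 72.4% in postnatal NSC. Cspg4 and Vcan also varied least in adult NSC (9.93% and 10.1%). Cspg5 went the other way, with 8.4% in postnatal OPC, 13.3% in adult NSC and 10.0% in postnatal NSC. Matn4 and Hapln1 also varied most in adult NSC (62.1% and 200%), where their counts were few.

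Other genes of the pathway were counted in lists that leave out the 10 genes, beside the shares of all genes given above. Of 6 tested genes for other chondroitin or dermatan sulfate cores, postnatal OPC had 4 called higher than postnatal NSC (Acan, Spock1, Spock2 and Spock3) and 2 called lower (Bgn and Cd44). Spock2, a testican, had 27.8 ± 4.66 CPM in postnatal OPC, 5.28 ± 0.601 CPM in adult NSC and 13.7 ± 2.67 CPM in postnatal NSC (SD, n = 4 each), and was 2.03-fold higher in postnatal OPC than in postnatal NSC (edgeR adjusted p = 0.000338). Cd44, the hyaluronan receptor, had 8.35 ± 3.77 CPM in postnatal OPC, 123 ± 10.2 CPM in adult NSC and 49.9 ± 18.3 CPM in postnatal NSC. It was 6.02-fold lower in postnatal OPC than in postnatal NSC (edgeR adjusted p = 0.000143) and 2.46-fold higher in adult than in postnatal NSC (edgeR adjusted p = 0.00646). The other 4 calls between adult and postnatal NSC in this list were lower.

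Ligands and surface partners were mixed, with 3 of 12 called higher and 6 lower in postnatal OPC against postnatal NSC, and 2 higher and 5 lower in adult against postnatal NSC. Those 2, Itga3 and Lgals3, lay at the threshold (edgeR adjusted p = 0.05 and 0.0498), and 0 to 1 were called higher on leaving out a single library, whichever it was. Ptn, which encodes the Ptprz1 ligand pleiotrophin, had 1677 ± 114 CPM in postnatal OPC, 947 ± 50.1 CPM in adult NSC and 941 ± 59.9 CPM in postnatal NSC. Like its receptor gene it was higher in OPC than in postnatal NSC, 1.78-fold (edgeR adjusted p = 1.26e-05), and not called between the NSC groups (edgeR adjusted p = 0.934). Cntn1, a neural adhesion molecule that binds Ptprz1, was 4.9-fold higher in postnatal OPC than in postnatal NSC, with 816 ± 141 CPM against 167 ± 36.6 CPM (edgeR adjusted p = 2.52e-06). Mdk, the related ligand midkine, was lower in both postnatal OPC (13 ± 2.92 CPM) and adult NSC (10.0 ± 1.05 CPM) than in postnatal NSC (21.2 ± 3.78 CPM), with edgeR adjusted p of 0.00617 and 0.000443. Ptprs and Ptprf, receptor phosphatases of the family that binds chondroitin sulfate chains, were 1.57-fold and 1.72-fold lower in postnatal OPC than in postnatal NSC (edgeR adjusted p = 0.00488 and 0.000128). Ptprd, another receptor phosphatase of the list, went the other way. It was 2.82-fold higher in postnatal OPC than in postnatal NSC, with 62.9 ± 18.5 CPM against 22.3 ± 8.07 CPM (edgeR adjusted p = 0.000556).

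Of 9 tested genes for other linkers and for hyaluronan synthesis, postnatal OPC had 4 called lower than postnatal NSC, and the other 5 were not called. Tnc, which encodes tenascin-C, ran against its relative Tnr, with 45.2 ± 4.52 CPM in postnatal OPC, 3909.9 ± 476 CPM in adult NSC and 1142 ± 668 CPM in postnatal NSC (SD, n = 4 each). It was 25.2-fold lower in postnatal OPC than in postnatal NSC (edgeR adjusted p = 3.46e-06) and 3.42-fold higher in adult than in postnatal NSC (edgeR adjusted p = 0.000803). Fbln2, a fibulin that binds lecticans, was 45.9-fold lower in postnatal OPC than in postnatal NSC, with 15.5 ± 12.5 CPM against 709 ± 246 CPM (edgeR adjusted p = 4.73e-05). Hapln4, another link protein, had 3.58 ± 0.394 CPM in postnatal OPC, 11.9 ± 0.911 CPM in adult NSC and 11.1 ± 2.92 CPM in postnatal NSC. Has2, which makes hyaluronan, was 3.58-fold lower in adult than in postnatal NSC, with 2.64 ± 0.88 CPM against 9.49 ± 0.86 CPM (edgeR adjusted p = 0.000848).

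Besides Xylt1, enzymes that build, extend and sulfate the chain were called in both directions. Of 6 genes that build the linkage region, postnatal OPC had 2 called higher than postnatal NSC, and 1 without postnatal OPC 1, 3 or 4 or postnatal NSC 2 or 3. Adult NSC had 2 higher and 1 lower than postnatal NSC. Without postnatal NSC 2 there were 0 called in either direction, without adult NSC 1 or 3 there was 1 higher, and over libraries left out singly the number lower ran from 0 to 3 and stayed at 1 without postnatal OPC 1 or postnatal NSC 3. Among 6 genes of chain polymerisation, postnatal OPC had 1 called higher and 3 lower than postnatal NSC, and adult NSC 2 higher (1 without postnatal NSC 2 or 4). Csgalnact1, whose product adds the first N-acetylgalactosamine that commits the chain to chondroitin, was 3.41-fold lower in postnatal OPC than in postnatal NSC, with 8.51 ± 1.65 CPM against 28.9 ± 5.41 CPM (edgeR adjusted p = 1.05e-05), while its relative Csgalnact2 was 1.54-fold higher (edgeR adjusted p = 0.00126). Of 9 genes for sulfation and epimerisation, adult NSC had 4 called higher than postnatal NSC and postnatal OPC had 5 lower than adult NSC. The 4 became 1 without adult NSC 3 and 2 without adult NSC 1, 2 or 4 or postnatal NSC 2 or 4. Chst3, a chondroitin 6-O-sulfotransferase, was 2.33-fold lower in postnatal OPC than in postnatal NSC, with 46.7 ± 10.2 CPM against 109 ± 37.0 CPM (edgeR adjusted p = 0.000698). Chst11, a 4-O-sulfotransferase, was 1.74-fold higher in adult than in postnatal NSC, with 452 ± 15.1 CPM against 259.5 ± 117 CPM (edgeR adjusted p = 0.0336).

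Genes that supply sugar and sulfate donors gave 4 of 9 called higher in postnatal OPC against postnatal NSC, and the other 5 were not called. In adult against postnatal NSC 3 were called higher and 6 lower, and without adult NSC 2, 3 or 4 there were 3 called lower. Ugdh, which makes UDP-glucuronate and so also serves heparan sulfate and hyaluronan, had 305 ± 61.9 CPM in postnatal OPC, 47.6 ± 4.42 CPM in adult NSC and 121 ± 27.4 CPM in postnatal NSC. It was 2.52-fold higher in postnatal OPC than in postnatal NSC (edgeR adjusted p = 6.51e-05) and 2.54-fold lower in adult than in postnatal NSC (edgeR adjusted p = 7.49e-05). Papss1, which makes the sulfate donor PAPS, had 295 ± 18.1 CPM in postnatal OPC, 139 ± 7.2 CPM in adult NSC and 198 ± 11.1 CPM in postnatal NSC. These 2 genes had the order of Cspg4 and Cspg5 in their means.

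**Figure D5:**
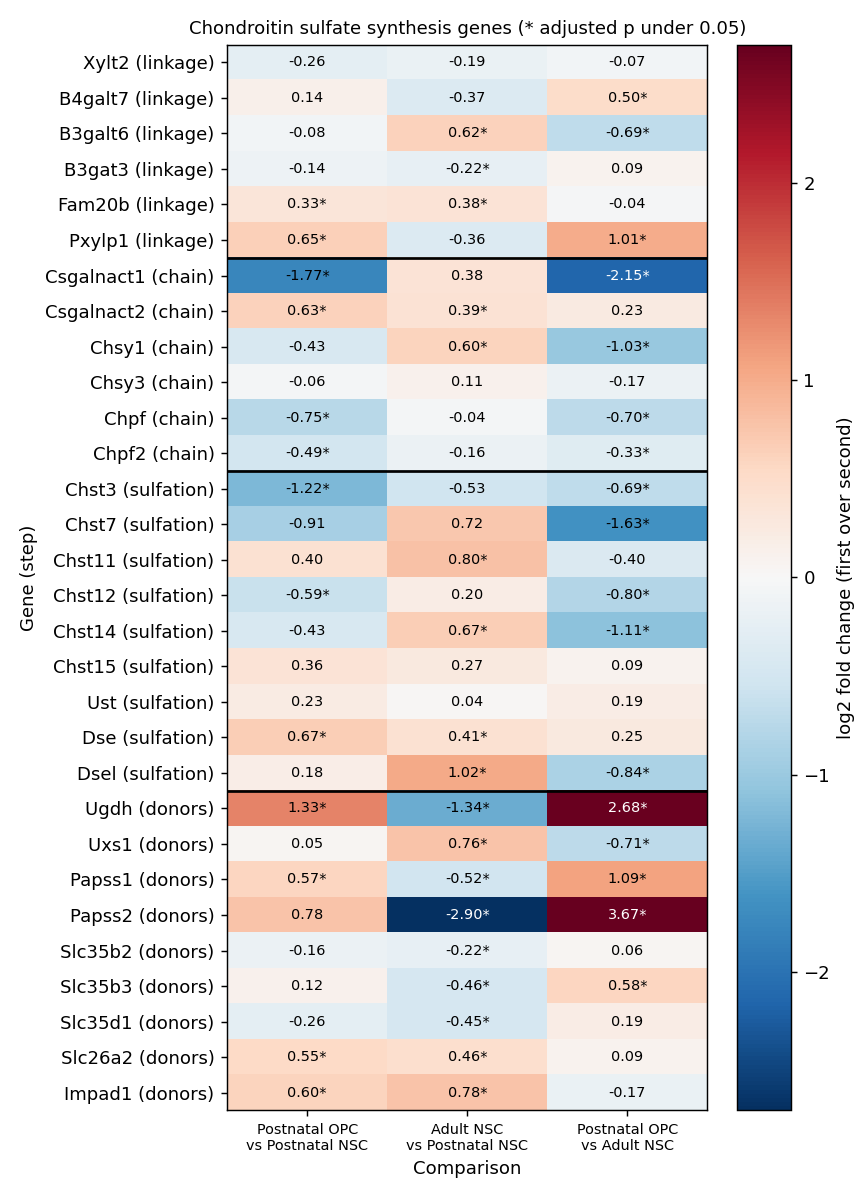
Log2 fold change (first group over second) of genes for chondroitin sulfate synthesis other than Xylt1, in each comparison. They cover the linkage region, the chain, sulfation and donor supply, and an asterisk marks an adjusted p under 0.05. Ugdh, Papss1 and Pxylp1 were called higher in postnatal OPC than in both NSC groups, and Csgalnact1, Chpf, Chpf2, Chst3 and Chst12 lower.

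Proteases that cut the cores were mostly lower in postnatal OPC, with 6 of 11 called lower and 1 higher against postnatal NSC, and 9 lower and 2 higher against adult NSC. The number higher became 2 against postnatal NSC without postnatal OPC 2 or postnatal NSC 3, and 1 against adult NSC without postnatal OPC 1, 3 or 4 or adult NSC 1 or 3. Adamts4 and Adamts1, whose products cleave lecticans, were 11.5-fold and 7.99-fold lower in postnatal OPC than in postnatal NSC (edgeR adjusted p = 2.36e-05 and 0.000114). Adamts4 had 8.2 ± 3.64 CPM in postnatal OPC, 124 ± 17.2 CPM in adult NSC and 93.2 ± 35.9 CPM in postnatal NSC (SD, n = 4 each). In adult against postnatal NSC 7 of the 11 were called higher, among them Adamts9 at 198 ± 15.7 CPM against 57.4 ± 20.7 CPM (3.46-fold, edgeR adjusted p = 0.00067), and 2 lower. The 2 lower became 0 without adult NSC 1, 2 or 3 or postnatal NSC 2, and 1 without adult NSC 4, postnatal OPC 3 or 4 or postnatal NSC 1, 3 or 4. Enzymes that break down chondroitin sulfate and hyaluronan had 8 of 13 called lower and 1 higher in postnatal OPC against postnatal NSC, and 6 lower and 2 higher in adult against postnatal NSC. The number higher became 2 in postnatal OPC without postnatal OPC 2. In adult NSC it became 0 without postnatal NSC 2 and 1 without postnatal OPC 1, any 1 adult NSC library or postnatal NSC 1. Hyal1, a lysosomal hyaluronidase, was 2.96-fold lower in postnatal OPC and 3.12-fold lower in adult NSC than in postnatal NSC, with 2.67 ± 0.571 CPM in postnatal OPC, 2.53 ± 0.491 CPM in adult NSC and 7.9 ± 1.3 CPM in postnatal NSC (edgeR adjusted p = 0.000105 and 9.04e-05).

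Heparan sulfate proteoglycans, which start from the same linkage region, gave a set against which the 10 genes can be read. Of 14 heparan sulfate cores, 1 was called higher and 6 lower in postnatal OPC against postnatal NSC, and 4 higher and 6 lower in adult against postnatal NSC. Sdc4 (syndecan-4), Col18a1 and Hspg2 (perlecan) were 7.46-fold, 7.19-fold and 5.73-fold lower in postnatal OPC than in postnatal NSC (edgeR adjusted p = 1.09e-05, 5.63e-05 and 1.26e-05). Agrn (agrin) was 2.08-fold lower in adult than in postnatal NSC, with 292 ± 11.7 CPM against 606 ± 98.9 CPM (edgeR adjusted p = 3.28e-05). Heparan sulfate synthesis and sulfation had 2 of 14 higher and 5 lower in postnatal OPC, and 6 higher and 2 lower in adult NSC, each against postnatal NSC. In postnatal OPC the 2 higher became 1 when any 1 library other than postnatal OPC 2 or postnatal NSC 4 was left out, and the 5 lower became 8 without postnatal OPC 2 and postnatal NSC 3 together. The median log2 fold change of postnatal OPC over postnatal NSC was -0.20 for the heparan sulfate cores and 0.78 for the 9 genes of the set, a difference for which no test was made.

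Markers of cell types were read beside these levels. Of 8 other OPC markers, postnatal OPC had 4 called higher than postnatal NSC and all 8 called higher than adult NSC, and adult NSC had 6 called lower than postnatal NSC. Pdgfra, the receptor for PDGF-AA, had 1433 ± 710.2 CPM in postnatal OPC, 12.2 ± 2.98 CPM in adult NSC and 230 ± 59.6 CPM in postnatal NSC (SD, n = 4 each). None of the 8 was at 0 in any group. Their sum was 4842 to 10336 CPM in postnatal OPC, highest in postnatal OPC 2. It was 2106 to 2420.2 CPM in adult NSC and 2849 to 3468 CPM in postnatal NSC. In adult NSC most of the sum came from Olig1 (1508 ± 132 CPM) and Olig2 (622 ± 24.7 CPM), which were not called between the NSC groups. The 6 markers called lower in adult NSC had means there of 4.93 CPM (Gpr17) to 42.6 CPM (Cacng4). In the sum the groups had the order of the means of Cspg4, Cspg5, Tnr and Matn4. Within groups the order depended on the measure. Postnatal NSC 4 had the highest sum of its group and the lowest Tnr and Matn4. In the mean log2 CPM of the 8 markers (a small constant added to each CPM), postnatal NSC 4 was instead the lowest, at 7.12 against 7.39 to 7.7. Postnatal NSC 3 was the highest on that measure, as for Tnr and Matn4, whereas Cspg4 and Cspg5 were lowest in it. The sum of 6 markers of mature oligodendrocytes was 258 to 531 CPM in postnatal OPC, 144 to 183 CPM in adult NSC and 328 to 901 CPM in postnatal NSC, led by Cnp. Neuron markers, led by Dcx in OPC and Tubb3 in both NSC groups, summed to 82.2 to 233 CPM in postnatal OPC, 16.8 to 23.1 CPM in adult NSC and 32.0 to 94.1 CPM in postnatal NSC. Astrocyte markers, whose cell type also makes Ncan and Bcan, summed to 1664 to 2896 CPM in postnatal OPC, 2314 to 2443 CPM in adult NSC and 2064 to 3418 CPM in postnatal NSC. Most of that sum came from Aldh1l1, Slc1a3 and Aldoc. In adult NSC, Gfap, S100b, Aqp4 and Aldoc, 4 of the 8, were called lower than in postnatal NSC, as Bcan was, by 7.12-fold, 11.9-fold, 4.75-fold and 1.59-fold (edgeR adjusted p = 0.00583, 0.000177, 0.0037 and 0.00265), and the other 4 were not called. Markers of neural stem and progenitor cells, led by Fabp7 in OPC and Vim in both NSC groups, summed to 4767 to 7704 CPM in postnatal OPC, 8845 to 9596 CPM in adult NSC and 7432 to 8037 CPM in postnatal NSC, with none of the 8 at 0. Endothelial markers (led by Kdr in OPC and Flt1 in NSC) summed to at most 15.9 CPM, choroid plexus and ependyma markers (led by Foxj1) to at most 47.9 CPM and microglial markers (led by P2ry12) to at most 1.97 CPM in any library, with Cldn5 and Cdh5 at 0 in all OPC libraries and Cx3cr1 at 0 in all 12. The part of these cell types in the levels of the 10 genes was not tested.

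As a description of pattern, the 2 genes with the highest Pearson correlation of log2 CPM with each tested gene over the 12 libraries were sought among 11187 genes. Libraries of 1 group are not independent points here, since genes with the same order of groups score high. They were Vps8 and Cacng4 for Cspg4 (r = 0.981 each), Sox12 and Arhgef3 for Cspg5 (0.994 and 0.992), and Stau2 and Hdgfl3 for Ptprz1 (0.987 and 0.984). For the lecticans they were Rap1gap and Chadl for Bcan (0.992 and 0.989), Slc39a1 and Speg for Ncan (0.951 and 0.949), and E130308A19Rik and Slc44a5 for Vcan (0.983 and 0.981). Tnr was most like Zcchc18 and Slc1a1 (0.994 each), and Xylt1 most like Ptpn9 and Rps6ka6 (0.981 and 0.976). For Matn4 the nearest were Rbpjl, which overlaps it, and Gal3st1 (0.994 and 0.993). Ncan had the lowest values of the 9 genes.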

How the data were processed

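Per the labels, a stranded kit was used on poly(A) RNA. The deposited table holds whole-number read counts per gene, not normalized, for 12 libraries. FastQC, STAR, featureCounts 1.22.2 and GRCm38 were named, per the submitters' processing notes; the annotation, strand setting and treatment of reads that map to several genes are not given in the sources used here. Total counts were 17226501 to 23651396 (postnatal OPC), 16756231 to 20064043 (adult NSC) and 38928989 to 54801726 (postnatal NSC), so that postnatal NSC values have the least counting error. Symbols and coordinates come from GENCODE M21, which held 55141 of 55401 identifiers; the 260 others held 0.00947% to 0.013% of counts. No pair of libraries in a group agreed within sampling noise (lowest chi-square per degree of freedom 3.98).

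Genes were kept by filterByExpr (minimum count 10, minimum total 15), scaled by TMM and fitted over all 12 libraries with a term per group in edgeR 4.0.16 (limma 3.58.1, R 4.3.3; Python 3.11.15 for summaries), with 2-sided quasi-likelihood tests and Benjamini-Hochberg adjustment per comparison. The biological coefficient of variation was 22.6%. log2 CPM used a prior count of 2. The fit was tested on simulated counts. Hapln1 ratios carry exact Clopper-Pearson intervals. Alternatives were DESeq2 1.42.0 and the settings given in the closing section.

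The members, lists and tests were chosen with earlier results of these data known. Named besides the 10 genes are Acan, the highest marker of each list and the 2 most alike genes of each. Others come from up to 3 called genes per list, direction and comparison with at least 5 CPM. Spock1, Spock3, Pdgfra, Olig2, Gpr17, Itga3, Gfap, S100b, Aqp4 and Aldoc were named after their values were seen. Cspg4b, on a list, was not analysed here. A gene of the sugar and sulfate donor list is not reported here and was left out of its counts. Protein features were planned and not run.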

Additional observations from a re-analysis of the deposited data

Results flagged for a closer look

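Tnr in postnatal OPC 2 stood at 1076 CPM, far above the other 3 postnatal OPC libraries at 330.0 to 368 CPM. Hapln1 in adult NSC 3 stood at 0.0563 CPM, which is 1 count, where the other 3 adult NSC libraries had 0. Both were picked out because the gap of 1 sample to the nearest of the others took most or all of the range of its group. Of 30 combinations of gene and group, these were the 2 that passed, and chance picks out about 1 in 20 groups. That rate does not hold for Hapln1 in adult NSC, since 1 count among libraries at 0 always passes.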

How the results depend on the processing

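Over 21 other settings the 9 tested genes gave 567 values, of which 543 kept direction and side of the threshold, and 20 of 27 comparisons of a gene kept both in all settings. The numbers of genes called stayed within 1.5 times of those reported, with 1 exception: Ncan added 1 gene called lower in postnatal OPC against adult NSC, where edgeR over all groups gave 0, with only the 2 groups fitted, with DESeq2, and with 1 postnatal NSC library (2 or 4) left out; leaving out 1 library each gave 0 to 1. Direction turned only where the difference was near 0 (log2). For Ptprz1 in adult against postnatal NSC it was -0.02 with library totals without TMM and -0.008 without postnatal NSC 2 (-0.008 to 0.092 over libraries left out singly). For Xylt1 in postnatal OPC against adult NSC it was 0.042 with library totals without TMM, 0.128 without postnatal OPC 2 (-0.11 to 0.128 over libraries left out singly) and 0.126 without both libraries low in G1/S genes. Calls of Xylt1, Vcan and Ncan near the threshold were lost under some settings. Xylt1 in postnatal OPC against postnatal NSC was lost with the mean of the Y-linked genes as a covariate (edgeR adjusted p = 0.055). That mean was far lower in adult NSC 1, postnatal NSC 2 and postnatal NSC 3 than in all other libraries. Vcan in postnatal OPC against postnatal NSC was lost with only the 2 groups (adjusted p = 0.0581, edgeR) and without postnatal OPC 2 or postnatal NSC 1, 2 or 4 (0.0542 to 0.0825). In adult against postnatal NSC, Ncan was lost without adult NSC 1, 2 or 3 or postnatal NSC 2 and with the Y-linked covariate (edgeR adjusted p 0.0528 to 0.06), and Vcan without adult NSC 3 or 4 or postnatal NSC 3 and with that covariate (0.056 to 0.0686). The causes were not tested. Whether equal replicate numbers mark the same litter across groups is not given. Correlations of deviations ran from -0.363 to 0.325 for same-numbered libraries and from -0.413 to 0.414 for the others. Such wide ranges cannot show whether the libraries were paired. With the replicate number as a block the counts of genes called were 6 higher and 1 lower, 1 higher and 7 lower, and 7 higher and 0 lower in the 3 comparisons, and over all genes 6811, 8043 and 7818 were called. Batches of sequencing that follow the groups cannot be told apart from them, and depth limits Hapln1 and Matn4 in adult NSC. Counts over the pathway lists under other settings, added after the data were seen, moved by at most 3 genes in a list. The 16 G1/S genes are the exception: 1 was called higher in postnatal OPC and 1 in adult NSC against postnatal NSC, with 0 to 8 and 1 to 7 over the other settings.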
